A study of Nematostella vectensis with 4 samples.

Results

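The pharynx and the body wall of the starlet sea anemone Nematostella vectensis were compared through 1 single-cell RNA library each. Every barcode with at least 300 unique molecular identifiers (UMIs, the tags that count captured transcripts) was taken as a cell, which left 2804 pharynx cells and 1652 body wall cells. These 4456 cells belong to the 7112 cells that the same cutoff leaves in the 4 libraries of the study, whose tentacle and mesentery libraries are not used here. Both tissues came from sub-adult polyps at 5 months of age, were separated by dissection, and went through the same enzymatic dissociation and droplet capture. No strain, sex, transgene or treatment is labelled for either tissue, with the number of polyps behind a library not given in the sources used here. With 1 library a side no difference has a replicate error, so no test was run. All intervals are 95% intervals and cover counting error only.

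The pharynx of a sea anemone is a tube of ectodermal origin that leads from the mouth into the gastric cavity. Its lining is rich in cilia, which move water and food, and it carries stinging cells, gland cells and nerve cells. The body wall, or column, is built of an outer epidermis and an inner gastrodermis with a layer of extracellular matrix, the mesoglea, between them. Muscle in these animals is formed by epithelial cells whose bases hold contractile fibres, and the wall of the column carries fibres that shorten and constrict the polyp.

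The cells held 2755343 UMIs in the pharynx against 2003883 in the body wall, with a median of 563 and 766 UMIs and of 310 and 359.5 detected gene models per cell. Levels are given as UMIs of a gene model per 1000000 UMIs of the tissue's cells (CPM). Where a tissue had 0 UMIs of a model, 3 UMIs per library stood in as the floor, 1.09 CPM in the pharynx and 1.50 CPM in the body wall, and the fold is then given as a bound. A share of 0 cells allows up to 0.107% of pharynx cells and 0.182% of body wall cells. Of the barcodes called cells, 9 occur in both libraries, and 68 of all 7000 barcodes deposited for each do. Joint clustering of the cells gave 25 clusters, which are used by number and only to say where the UMIs of a gene lay. Most cells of many clusters came from 1 library, so such a cluster may be that library rather than a kind of cell. Names beside the model identifiers (NVE numbers) mostly point to a protein of another species, and the roles given below are those of that protein family, not measured in the anemone.

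Most gene models had similar levels in the pharynx and the body wall, and a minority differed at least 4-fold. Of 5638 models with at least 50 UMIs over both libraries, 3576 (63.4%) lay within 2-fold. The pharynx was at least 4-fold higher for 700 models, 12.4% of those compared, and the body wall for 371, or 6.58%. In either direction these were 1071 models, or 19.0%. The pharynx-high models took 9.50% of the pharynx UMIs and 0.799% of the body wall UMIs, and the body-wall-high models took 8.48% of the body wall UMIs and 0.446% of the pharynx UMIs. No UMI of 156 pharynx-high models was seen in body wall cells, and none of 48 body-wall-high models in pharynx cells. The interval lay wholly past 4-fold for 429 and 290 of them. Fewer cells of a type and less RNA per cell cannot be told apart in these sums. Barcodes below the cutoff, which carry free RNA or small cells of the same suspension, pointed the same way for 465 of the 466 pharynx-high models and 318 of the 324 body-wall-high models with at least 20 UMIs there.

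**Figure D1:**
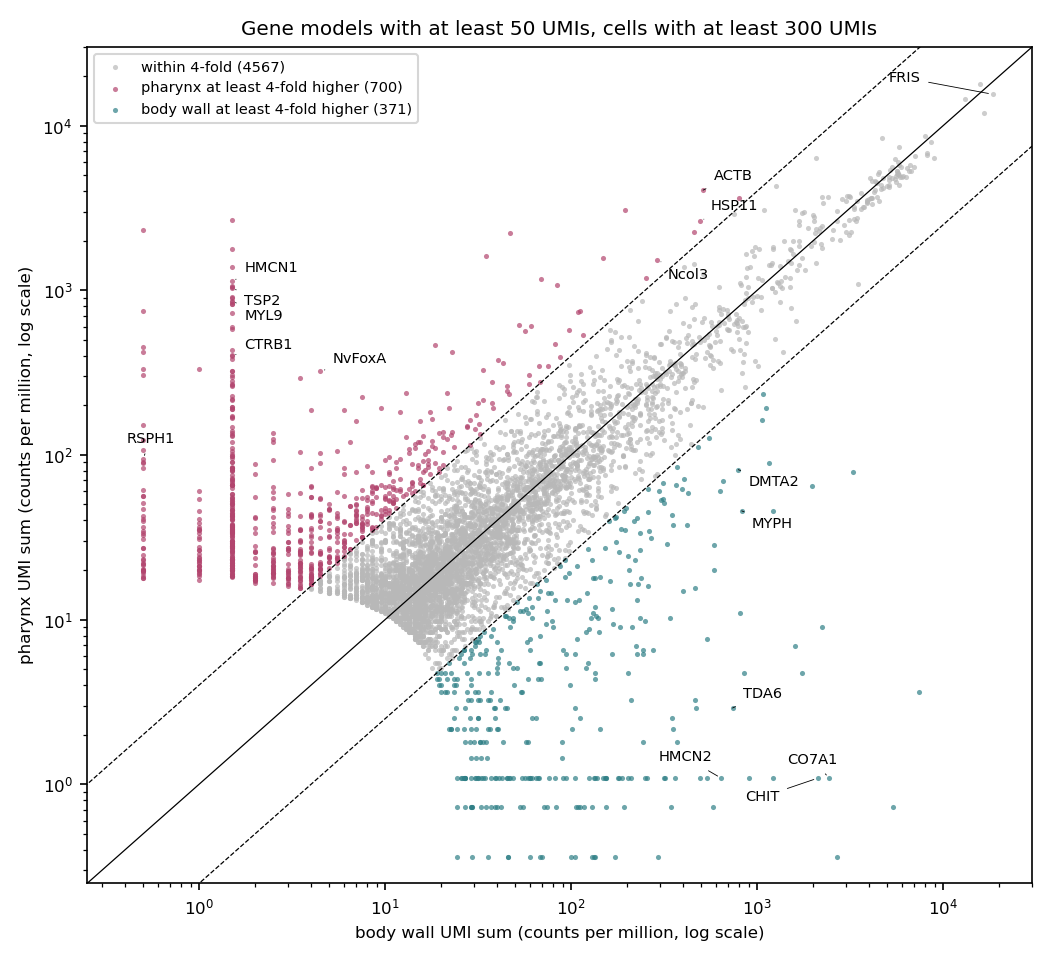
Summed level of each of the 5638 compared gene models in body wall cells (x, CPM, log scale) and pharynx cells (y, CPM, log scale). Dashed lines mark 4-fold; the 700 red models lie above them, the 371 green models below, and a model with 0 UMIs on 1 side is drawn at the 3-UMI floor, 1.50 CPM for the body wall and 1.09 CPM for the pharynx, so models with 1 or 2 UMIs sit beyond it.

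The label of the pharynx library was checked with NvFoxA (NVE20630), a forkhead transcription factor known from the developing pharynx and mesenteries of this species. It had 888 UMIs in the pharynx against 9 in the body wall, or 322 and 4.49 CPM, a ratio of 71.8 (37.6 to 157). It was detected in 21.4% of pharynx cells and 0.484% of body wall cells, and in 10.4% and 0.182% after every cell was thinned to 300 UMIs. Within the pharynx its share was lowest in clusters 14 and 10, at 1.79% and 2.27% of cells with a median of 1358 and 1099.5 UMIs. It reached 60% of the cells of cluster 21 and 33.8% of cluster 1, whose medians were 885.5 and 569 UMIs. Barcodes below the cutoff held 236 and 2 UMIs of it. No gene with a known restriction to the column was among the lists used, so the label of the body wall library was not checked in this way.

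The most abundant named model seen in the pharynx alone was a hemicentin, HMCN1_HUMAN (NVE10021), a large extracellular matrix protein of the fibulin group. It had 3153 UMIs (1144 CPM) against 0, at least 764-fold higher, and was detected in 43.6% of pharynx cells (30.7% after thinning). Its UMIs were broadly spread: 74.2% of the cells of cluster 1, 62.6% of cluster 0 and 56.5% of cluster 7 had one, with a low of 2.78% in cluster 16 (median 662.5 UMIs). Pharynx barcodes below the cutoff held 997 UMIs of it and those of the body wall none. A second broad difference was the small heat shock model HSP11_CAEEL (NVE10283), described further on.

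Other leading pharynx models were packed into small clusters. TSP2_HUMAN (NVE25933), named for a thrombospondin, a secreted matrix protein that binds cells, had 2844 UMIs against 0, at least 689-fold higher, with 92.2% of them in the 36 cells of cluster 16. The unnamed model NVE11519 had 7379 UMIs against 0, at least 1789-fold higher, with 92.5% of them in the same cluster. COCA1_MOUSE (NVE1555), named for a fibril-associated collagen, had 1168 UMIs against 1, a ratio of 849 (152 to 33580), 91.4% of them in cluster 21. The expansin-named YOAJ_BACSU (NVE2639) had 918 UMIs against 2, a ratio of 334 (92.1 to 2761), 99.2% of them in cluster 9. The latter fell to 92.6-fold without the 2% of barcodes with the most UMIs.

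**Figure D2:**
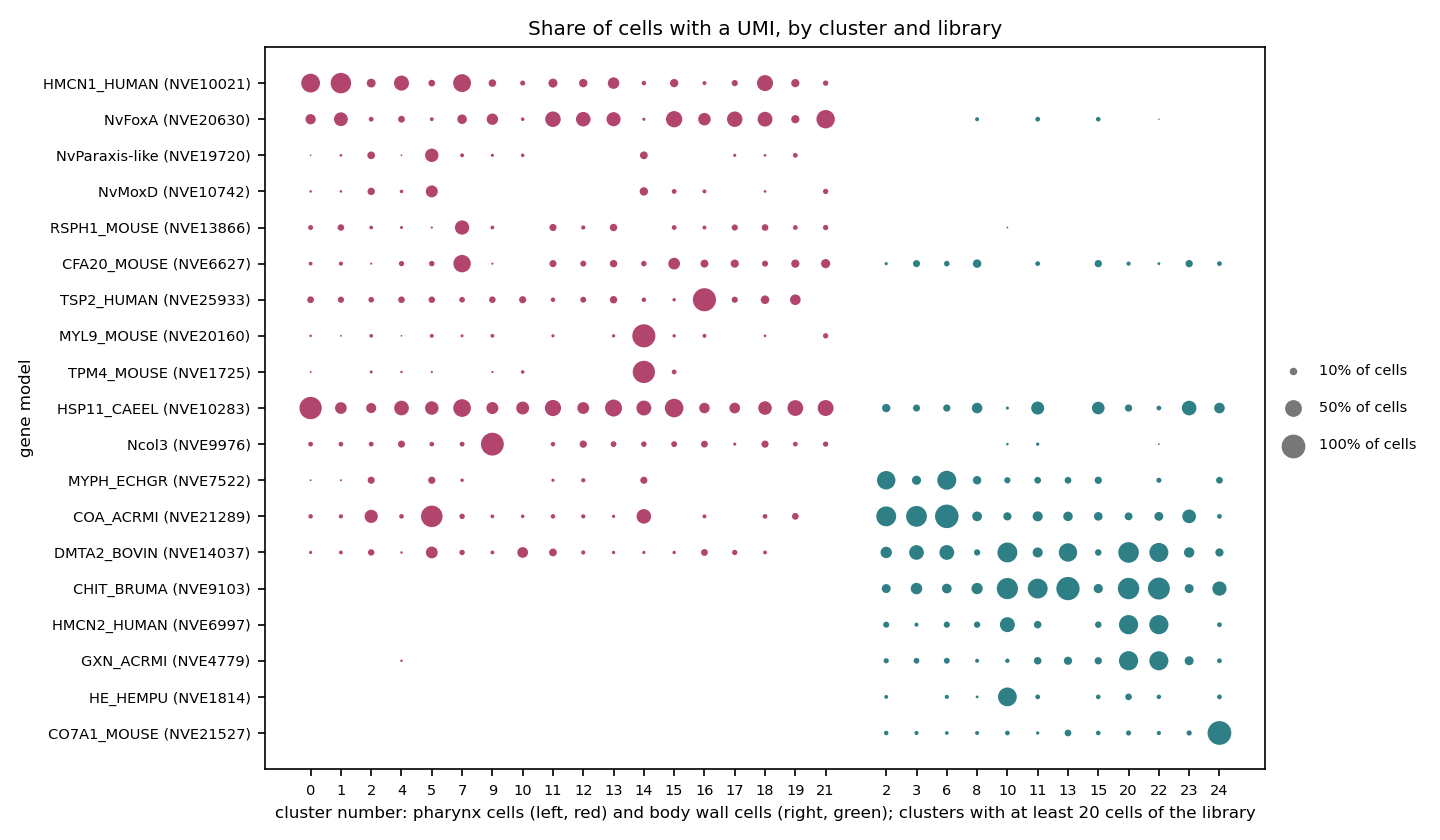
Share of cells with a UMI of 19 gene models (rows) in each cluster with at least 20 cells of the library (columns), pharynx cells left in red and body wall cells right in green; dot area follows the share. HMCN1_HUMAN spreads over many pharynx clusters, whereas TSP2_HUMAN, MYL9_MOUSE, Ncol3 and CO7A1_MOUSE lie almost wholly in 1 cluster each.

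Genes of motile cilia were the list with the largest share of pharynx-high members. Of 32 compared members 23 (71.9%, against 12.4% of all models) were pharynx-high and none body-wall-high, and 31 had the higher level in the pharynx. The list took 0.157% of pharynx UMIs and 0.0444% of body wall UMIs, and the median member differed by 1.23 on the log2 scale with 10 CPM added to each level, against 0.06 over all models. Of 144 gene rows with such names 94 were detected and 32 reached 50 UMIs, so the count says nothing of the sparser members. Most of the 23 cleared 4-fold narrowly: at 6-fold 7 remained past the line.

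Radial spokes and the central pair control the beat of the ciliary shaft (the axoneme). The group that holds them gave 15 of the 23 calls from 19 members. It also holds the models named CFA and CCD65_MOUSE (NVE23326), not all of which belong to these 2 structures. The radial spoke head model RSPH1_MOUSE (NVE13866) had 259 UMIs in the pharynx against 1 in the body wall (94 and 0.499 CPM), a ratio of 188 (33.5 to 7468). The central pair model SPAG6_MOUSE (NVE21264) had 168 against 23 UMIs, a ratio of 5.31, and the radial spoke models RSPH9_BOVIN (NVE14095) and RSH4A_HUMAN (NVE3831) were 7.12-fold and 6.14-fold higher. CFA20_MOUSE (NVE6627), a protein that ties the microtubule doublets, was the most abundant, with 371 and 65 UMIs and a ratio of 4.15 (3.18 to 5.49). It was detected in 7.88% of pharynx and 2.97% of body wall cells (3.60% and 0.787% thinned).

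The dynein motors that bend the axoneme were called in 3 of 4 models, among them the heavy chain DYH5_HUMAN (NVE7297) with 53 against 7 UMIs, 5.51-fold. All 3 tektins, filament proteins of the doublets, were called, led by TEKT1_CANFA (NVE24414) with 103 against 13 UMIs, 5.76-fold (3.22 to 11.2). Intraflagellar transport, which builds cilia of any kind, gave 1 call in 4: IFT52_MOUSE (NVE2949) was 5.19-fold higher, whereas IFT20_MOUSE (NVE3323) had 110 and 85 UMIs, a ratio of 0.941 (0.703 to 1.26). The regulator FoxJ1 (NVE14608), which switches on motile cilia genes in many animals, had 84 against 7 UMIs, a ratio of 8.73 (4.05 to 22.4). The other ciliary regulator, RFX3_XENTR (NVE17368), was not called at 94 and 54 UMIs, 1.27-fold.

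Cluster 7, with 191 pharynx cells and 2 body wall cells, held 46.6% of the list's pharynx UMIs and 11.3% of all pharynx UMIs. In it 36.1% of the cells had a UMI of RSPH1_MOUSE (NVE13866), 53.9% of CFA20_MOUSE (NVE6627) and 24.6% of FoxJ1 (NVE14608), at a median depth of 632 UMIs. The lowest shares of CFA20_MOUSE in the pharynx, 0.813% in cluster 2 and 0.847% in cluster 9, came at medians of 462 and 820.5 UMIs. Without cluster 7, an alternative added after the data were seen, 2 of 22 compared members were pharynx-high and the median was 0.72. Of all models 9.97% were pharynx-high in that setting, so the calls of the list were then near the share of all models. Without cluster 22, the largest of the body wall, 15 of 32 members were pharynx-high, against 11.9% of all models.

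**Figure D3:**
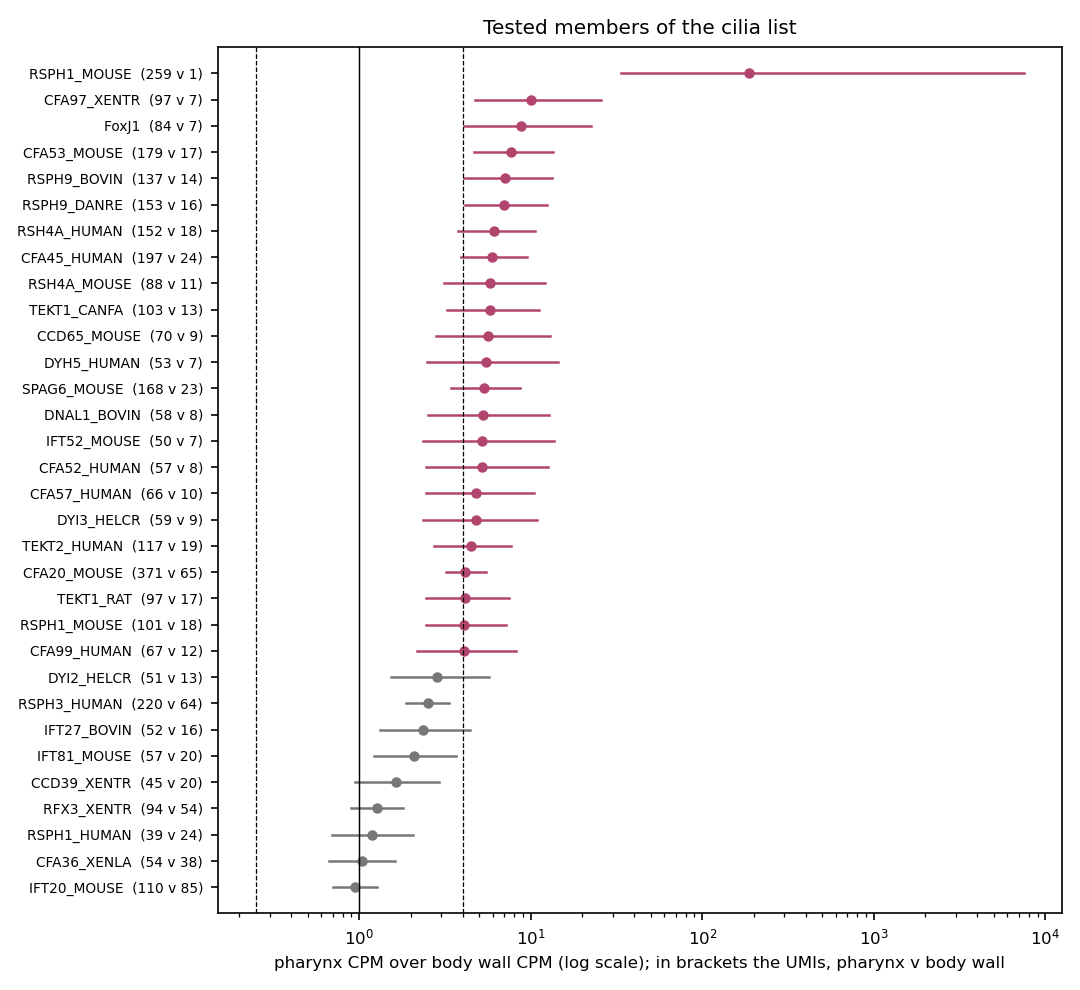
Ratio of pharynx to body wall CPM (log scale) with its 95% counting interval for the 32 compared members of the cilia list, UMIs in brackets. The 23 red models are past the 4-fold dashed line, from CFA99_HUMAN to RSPH1_MOUSE, and IFT20_MOUSE at 0.941 is the only member with the higher level in the body wall.

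Digestive enzyme genes that were called were pharynx-high with 1 exception. Of 14 compared members 7 (50%, against 12.4% of all models) were pharynx-high and 1 (7.14%, against 6.58%) body-wall-high. At a minimum of 20 UMIs these were 10 and 3 of 21, and after thinning 1 and 1 of 3. Cluster 17 held 66.5% of the list's pharynx UMIs in 59 cells. All 3 compared chymotrypsin-named models, serine proteases of the gut, were called. CTRB1_MOUSE (NVE9071) had 1103 UMIs against 0, at least 267-fold higher, in 13 cells. CTRB_BOVIN (NVE16548) had 64 against 0 and CTR2_CANFA (NVE14238) 77 against 0, the last from 1 cell. These 3 passed the minimum of 50 UMIs through the pharynx alone. Of 27 chymotrypsin and elastase rows 12 were detected. All rows held 1386 and 35 UMIs, those of the body wall all in models too sparse to compare. The carboxypeptidases, which trim peptides from their end, were called in 2 of 3, CBPA4_HUMAN (NVE6110) with 93 UMIs against 0 and CBPA2_MOUSE (NVE13106) with 92 against 1, 66.9-fold (11.7 to 2671). None of 5 lipases was called. Of 3 chitinase models, which split chitin, CHIT1_HUMAN (NVE5153) and CHIT1_HUMAN (NVE18677) were at least 46.5-fold and 18.2-fold higher in the pharynx. The other, CHIT_BRUMA (NVE9103), was among the strongest body wall models of all. It had 4240 UMIs (2116 CPM) against 0, at least 1943-fold higher, so that the list as a whole took 0.0863% of pharynx UMIs and 0.243% of body wall UMIs.

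CHIT_BRUMA (NVE9103) was detected in 51.9% of body wall cells, 37.7% after thinning, and in 96.0% of cluster 13, 85.4% of cluster 22 and 79.5% of cluster 10. Its lowest share was 14.2% in cluster 2, at a median of 585 UMIs against 1056 in cluster 22. Pharynx barcodes below the cutoff held no UMI of it and those of the body wall 1772.

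Matrix proteases, the enzymes that cut and remodel extracellular matrix, split by family. The astacins gave 6 pharynx-high and 4 body-wall-high models of 20, the ADAM and ADAMTS metalloproteases 5 and 0 of 6, the matrix metalloproteases 1 and 0 of 4, and their inhibitors, the TIMPs, 0 and 2 of 3. In total 12 of 33 (36.4%) were pharynx-high and 6 (18.2%) body-wall-high, against 12.4% and 6.58% of all models, and the median member was at 0.19. After thinning 3 and 4 of 13 were called and the median was −0.20. In the pharynx the hatching-enzyme astacin HE_HEMPU (NVE23939) had 837 UMIs against 1, a ratio of 609 (109 to 24072), in 43 cells, most of them of cluster 17. The aggrecan-cutting family member ATS16_HUMAN (NVE5882) had 126 against 2 UMIs, 45.8-fold, and the gelatinase-named MMP9_CANFA (NVE11979) 148 against 9, 12-fold (6.13 to 26.7). In the body wall another hatching-enzyme model, HE_HEMPU (NVE1814), had 722 UMIs against 0, at least 331-fold higher, with 87.8% in cluster 10. The meprin MEP1B_RAT (NVE2965) had 588 against 1, 809-fold (145 to 31988), with 92.9% in cluster 23. The inhibitors TIMP3_CHICK (NVE11882) and TIMP3_HORSE (NVE11883) had 279 and 85 UMIs there against 28 and 0, 13.7-fold (9.27 to 21.0) and at least 39.0-fold higher.

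Genes of the extracellular matrix differed in both directions, with collagens mostly on the body wall side. Of 71 compared members 19 (26.8%, against 12.4% of all models) were pharynx-high and 16 (22.5%, against 6.58%) body-wall-high, and the median was −0.06. Of 30 collagen chains, the rods of the mesoglea and of basement membranes, 5 were pharynx-high and 10 body-wall-high, and collagens took 0.200% of pharynx and 0.646% of body wall UMIs. The largest was CO7A1_MOUSE (NVE21527), with 4882 UMIs in the body wall against 0, at least 2238-fold higher, but from 85 cells and with 98.7% of its UMIs in the 25 cells of cluster 24. COCA1_CHICK (NVE13799) had 1082 UMIs against 0 from 30 cells. Of fibre-forming type, CO2A1_XENLA (NVE18920) had 146 UMIs in the pharynx against 608 in the body wall, 5.73-fold higher in the latter (4.77 to 6.91), and CO5A1_RAT (NVE15238) 181 and 732, 5.56-fold (4.72 to 6.58). The basement membrane chain CO4A1_DROME (NVE9696) was seen in the body wall alone, 98 UMIs against 0, at least 44.9-fold higher.

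The laminins, the other scaffold of basement membranes, pointed the opposite way: 3 of 4 were pharynx-high and none body-wall-high. LAMA1_HUMAN (NVE14701) had 75 UMIs in the pharynx against 5 in the body wall, 10.9-fold (4.47 to 34.6), LAMB2_MOUSE (NVE5667) 82 and 6, and LAMB1_MOUSE (NVE15212) 71 and 7. AGRIN_RAT (NVE23805), a heparan sulfate proteoglycan of basement membranes, was on the body wall side with 79 UMIs against 0. The fibrillin, fibulin and hemicentin group gave 8 pharynx-high and 4 body-wall-high models of 24. Its pharynx members included FBLN1_DANRE (NVE4720), 224 UMIs against 0, and its leading body wall member was HMCN2_HUMAN (NVE6997), 1284 UMIs against 0, at least 589-fold higher and present in 31.4% of body wall cells (15.9% thinned).

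Some models that share a name went in opposite directions. Of 55 name stems with at least 2 called models, 19 had at least 1 in each direction. The hemicentin stem HMCN1 had 5 and 1 of 12 compared, the collagen stem COCA1 3 and 4 of 11, and GAPR1, a secreted cysteine-rich protein family, 7 and 1 of 12. Without the 2% of barcodes with the most UMIs, the GAPR1 models NVE3006 and NVE3008 dropped from 5.16-fold and 5.61-fold to 2.55-fold and 2.05-fold, and the bound of NVE18451 from 152-fold to 35.0-fold. The acetylcholinesterase stem ACES, the enzyme that ends cholinergic signals, had a model on each side. ACES_FELCA (NVE4731) held 228 UMIs in the pharynx against 8, 20.7-fold (10.3 to 48.6), and ACES_BUNFA (NVE19921) held 267 in the body wall against 0, at least 122-fold higher. The counting of reads that match near-identical copies was not given in the sources used here.

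**Figure D4:**
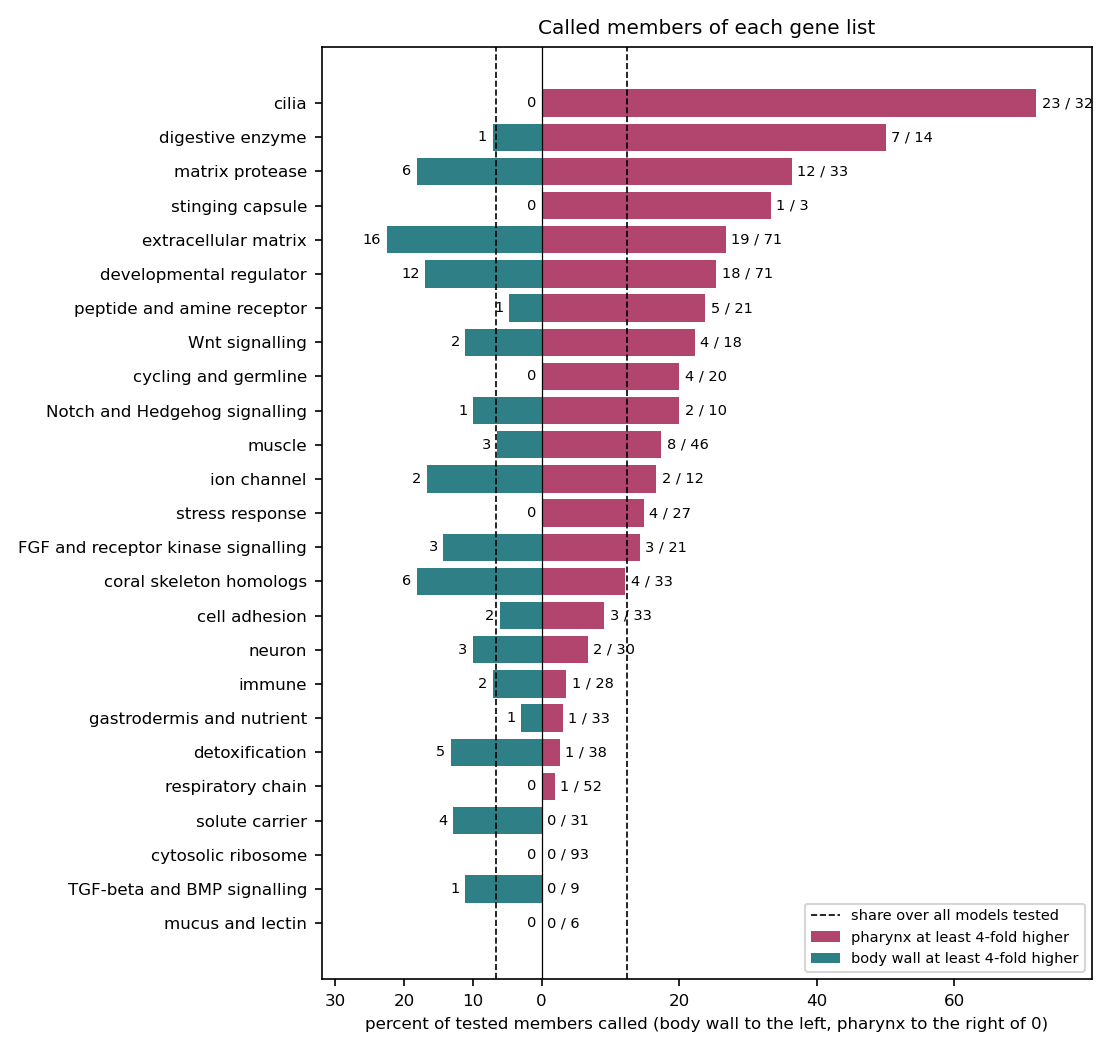
Percent of the compared members of each of 25 gene lists that were at least 4-fold higher in the pharynx (red, to the right of 0, with called over compared) or in the body wall (green, to the left of 0, with the number called). Dashed lines mark the shares over all models, 12.4% and 6.58%; the cilia bar of 23 in 32 is the longest, and the 93 ribosomal members have none.

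The muscle list split by member, and the pharynx members came largely from 1 small cluster. Of 46 compared members 8 (17.4%) were pharynx-high and 3 (6.52%) body-wall-high, near the 12.4% and 6.58% of all models, with a median of 0.04. All 82 rows of the list took 3.0% of pharynx against 2.56% of body wall UMIs. The myosin regulatory light chain MYL9_MOUSE (NVE20160), which switches contraction in smooth muscle, had 2375 UMIs in the pharynx against 0, at least 576-fold higher, with 98.4% in cluster 14. MLC2_DROME (NVE3912), another light chain, had 2008 against 0 and the tropomyosin TPM4_MOUSE (NVE1725), which covers the actin filament, 742 against 0, with 91.7% and 97.6% in the same 56 cells. CSRP1_COTJA (NVE7822), a LIM protein of the contractile apparatus, had 463 against 0 and NvMyophilin-like (NVE17049), of the calponin family, 280 against 0. ACTB_XENLA (NVE2876), an actin, had 11167 against 1025, a ratio of 7.92 (7.43 to 8.45), and 85.5% of its pharynx UMIs were in cluster 14. Actins are near copies of each other, so the split of reads between them is uncertain.

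On the body wall side the calponin-family model MYPH_ECHGR (NVE7522) had 1654 UMIs against 126, a fold of 18.0 (15.1 to 21.8), and was detected in 22.9% of cells against 2.32% (13.6% and 1.07% thinned). Most of its UMIs there, 72.1%, were in cluster 2. The filamin FLNC_HUMAN (NVE13524), an actin crosslinker, had 247 against 15, 22.6-fold (13.5 to 41.1). The calcium switch troponin C, TNNC1_PIG (NVE22530), had 260 against 63, 5.67-fold (4.29 to 7.60). Clusters 2 and 6 held 51.6% and 23.1% of the list's body wall UMIs, and clusters 5 and 14 held 26.7% and 25.7% of those of the pharynx.

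Transcription factors of development were called in both directions more often than all models at the minimum of 50 UMIs, but not at 200 UMIs. Of 71 compared members 18 (25.4%, against 12.4%) were pharynx-high and 12 (16.9%, against 6.58%) body-wall-high, and 49 had the higher level in the pharynx, with a median of 0.45. At a minimum of 200 UMIs 3 and 2 of 27 were called, against 10.8% and 8.86% of all models. Homeobox genes gave 12 and 8 of 29, basic helix-loop-helix genes 3 and 0 of 7, forkhead genes 2 and 1 of 5, zinc finger genes 0 and 2 of 15, and Sox genes none of 3.

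Beside NvFoxA, the pharynx side was led by NvParaxis-like (NVE19720), a helix-loop-helix factor whose relatives act in vertebrate mesoderm, with 289 UMIs against 0, at least 70.1-fold higher. The homeobox gene NvMoxD (NVE10742) had 197 against 0 and NvTwist (NVE19719), named for a mesoderm regulator of the fly, 94 against 0. Cluster 5 held 75.8%, 72.6% and 68.1% of the pharynx UMIs of these genes and 50% of those of the Hox gene HoxE/Anthox1a (NVE12998), which had 64 against 0. HoxB/Anthox6a (NVE11345), another Hox gene, had 163 against 5, a ratio of 23.7 (9.95 to 74.0). The Msx-family model NVE12977 had 173 against 0, the paired-class homeobox model PITX1 (NVE8119) 160 against 0, and the LIM homeobox gene NvLmx (NVE16579) 64 against 1, 46.5-fold (8.06 to 1867).

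The body wall side held other Hox genes and some of the NK genes. The NK models NK10 (NVE9962) and NK protein 6 (NVE18161) were pharynx-high, at 6.55-fold and 4.85-fold. HoxA/Anthox6 (NVE16373) had 74 UMIs in the body wall against 2, 50.9-fold (13.6 to 428), and Hox3-like (NVE20898) 54 against 3, 24.8-fold (8.03 to 124). The Nk2 protein (NVE24920), an NK homeobox factor, had 259 against 2, 178-fold (48.8 to 1478), and was detected in 12.5% of body wall cells, 3.81% after thinning. FOXO_CAEEL (NVE17475), a forkhead factor that acts in insulin signalling of the worm, had 139 against 1, 191-fold (33.7 to 7603), with 74.1% in cluster 22. The most abundant was DMTA2_BOVIN (NVE14037), of the doublesex-related DM family, with 1586 UMIs against 224, 9.74-fold (8.46 to 11.2), in 43.8% of body wall cells and 6.06% of pharynx cells (19.8% and 2.03% thinned). Further called members were NvPaxD2 (NVE5331) with 59 against 1, Six3/6 (NVE12346) with 65 against 5 and the LIM homeobox gene isl-1 (NVE10444) with 121 against 21.

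**Figure D5:**
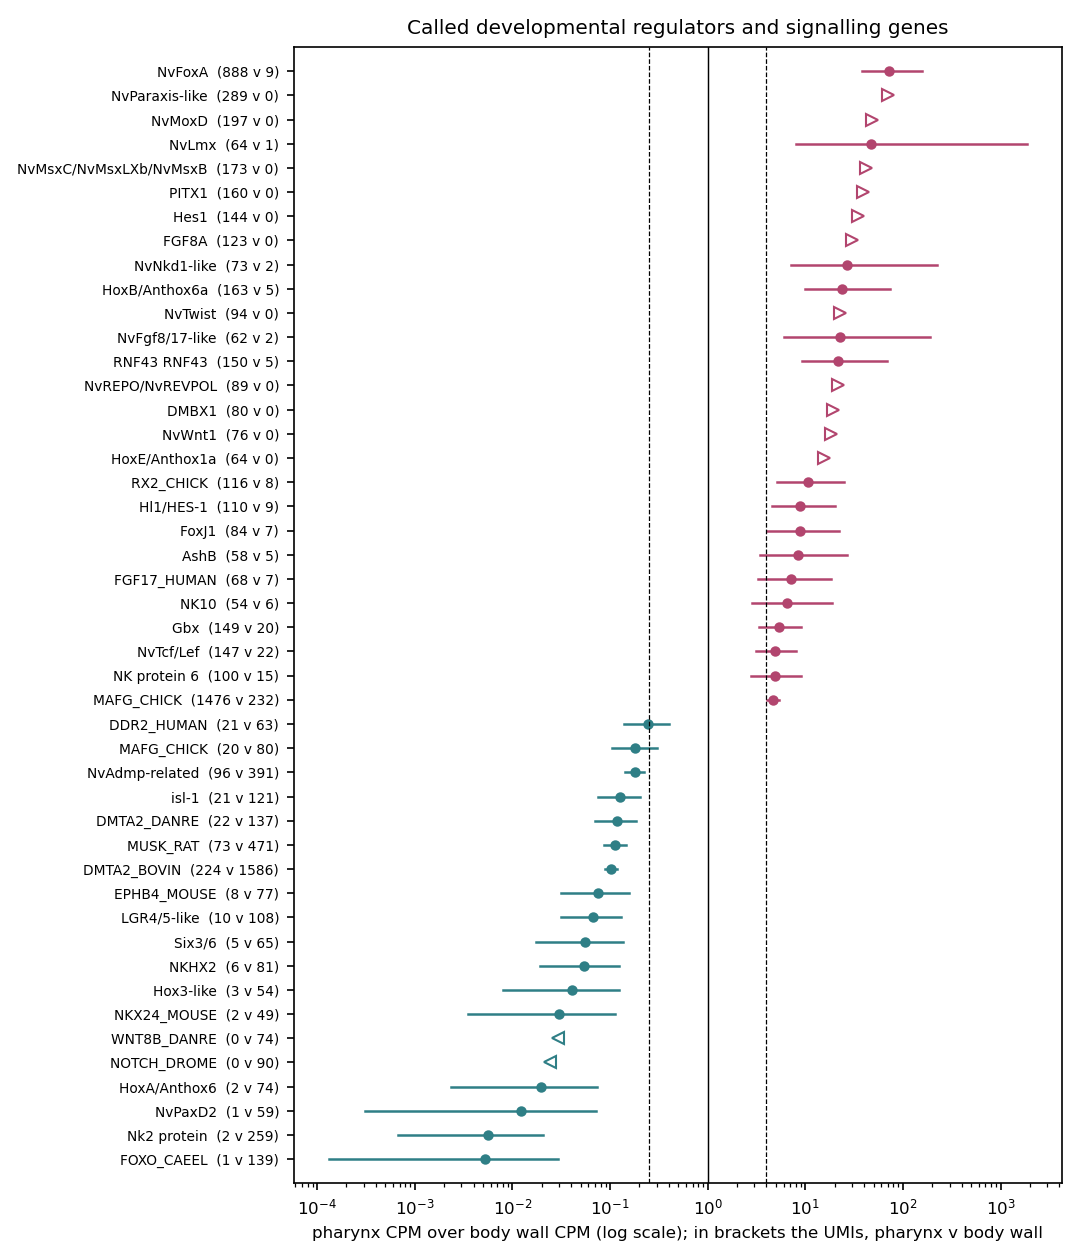
Ratio of pharynx to body wall CPM (log scale) with its 95% counting interval for the called transcription factors and signalling genes, UMIs in brackets; open triangles are bounds where 1 library had 0 UMIs. NvFoxA at 71.8 tops the pharynx side, and FOXO_CAEEL, with 1 UMI in the pharynx against 139 in the body wall, is at the bottom of the body wall side.

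Wnt signals pattern the oral to aboral axis of cnidarians. Of 27 ligand rows 13 were detected and 3 compared, of which 1 was pharynx-high and 1 body-wall-high. NvWnt1 (NVE12960) had 76 UMIs in the pharynx against 0, at least 18.4-fold higher, 48.7% of them in cluster 10, where 36.4% of pharynx cells had a UMI. WNT8B_DANRE (NVE12517) had 74 UMIs in the body wall against 0, at least 33.9-fold higher, 60.8% of them in cluster 2. Of 18 compared members of the pathway 4 (22.2%, against 12.4% of all models) were pharynx-high and 2 (11.1%, against 6.58%) body-wall-high, and none of the 5 Frizzled and co-receptor models was called.

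The intracellular members of the pathway that were called lay on the pharynx side. They were NvNkd1-like (NVE5555), named for a feedback inhibitor, with 73 against 2 UMIs, 26.5-fold (7.09 to 223), and NvTcf/Lef (NVE13458), the transcription factor of the pathway, with 147 against 22, 4.86-fold (3.09 to 7.99). RNF43 (NVE15043), a ubiquitin ligase that removes Frizzled receptors in vertebrates, had 150 against 5, 21.8-fold (9.14 to 68.2). The R-spondin receptor model LGR4/5-like (NVE10343) lay on the body wall side with 108 against 10, 14.8-fold, and 83.3% of its UMIs in cluster 2. The secreted antagonists were not called in 3 of 3.

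All 3 compared fibroblast growth factor ligands were pharynx-high and none of the 7 FGF receptors was called. The whole list of FGF and receptor kinase signalling had 3 pharynx-high and 3 body-wall-high models of 21. That is 14.3% in each direction, against 12.4% and 6.58% of all models. FGF8A (NVE19436) had 123 UMIs against 0, at least 29.8-fold higher, NvFgf8/17-like (NVE19437) 62 against 2 and FGF17_HUMAN (NVE25405) 68 against 7, with 79.4% of the last in cluster 5. The receptor kinases EPHB4_MOUSE (NVE12212), an ephrin receptor, and MUSK_RAT (NVE3012), known from the vertebrate nerve-muscle contact, were body-wall-high with 77 against 8 and 471 against 73 UMIs. In the Notch pathway, which sets neighbouring cells apart, 2 of 10 compared members were pharynx-high and 1 body-wall-high. These counts are too small to be told from the 12.4% and 6.58% of all models. The target-type factors Hes1 (NVE20664) and Hl1/HES-1 (NVE8464) had 144 against 0 and 110 against 9 UMIs, whereas NOTCH_DROME (NVE15639) had 90 in the body wall against 0, 95.6% of them in cluster 11. The BMP-family ligand NvAdmp-related (NVE5480) was the only one of 9 TGF-beta and BMP members called (11.1%, against 6.58% of all models). It was 5.6-fold higher in the body wall (4.47 to 7.08), a call that was lost without cluster 22.

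The minicollagen Ncol3 (NVE9976), a wall protein of the stinging capsule and a marker of stinging cells, had 4205 UMIs in the pharynx against 581 in the body wall, a ratio of 5.26 (4.83 to 5.75). It was detected in 8.24% and 1.33% of cells (5.85% and 0.726% thinned), and cluster 9 held 96.8% and 98.8% of its UMIs, where 92.4% of the pharynx cells had one. It was not past 4-fold when cluster 22 was left out. In the other pharynx clusters at most 9.38% of cells did. The other 2 members of that list, both named DKK3, were not called, at 3.59-fold (NVE143) and 3.02-fold (NVE142). The vesicular glutamate transporter VGLU3_DANRE (NVE20933), which loads glutamate into vesicles, had 83 against 7 UMIs, with 96.4% in the same cluster.

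The stress genes that were called were heat shock genes on the pharynx side. Of 27 stress members 4 (14.8%, near the 12.4% of all models) were pharynx-high and none body-wall-high, all 4 among 20 compared heat shock models. All 26 heat shock rows took 1.42% of pharynx and 0.765% of body wall UMIs. The 9 early response rows, genes which cells switch on within minutes of disturbance, took 1.25% and 1.23%, and none of the 7 compared was called. That even total rests on FOSX_MSVFR (NVE23145), at a ratio of 0.806, without which the rows took 0.590% and 0.407%. Of the 7, 5 had the higher level in the pharynx, with a median of 0.46 on the log2 scale. HSP11_CAEEL (NVE10283), a small chaperone, had 7274 UMIs against 987, a ratio of 5.36 (5.01 to 5.73), and was detected in 44.7% of pharynx and 10.6% of body wall cells (33.7% and 6.05% thinned). In cluster 0, which holds 620 pharynx cells and 9 of the body wall, 88.4% of pharynx cells had one. HS71L_BOVIN (NVE15435), of the large chaperone family, had 10044 against 1593, 4.59-fold (4.35 to 4.84), and 3.69-fold without the 2% of barcodes with the most UMIs. Heat shock genes are near copies of each other, so the split among them is uncertain. In the list 2 pharynx-high models were left without clusters 0 and 4, and likewise 2 without cluster 7 and 2 without cluster 22, each left out after the data were seen. Over all models the counts without clusters 0 and 4 were 647 and 356. The part of handling or dissociation in these levels was not tested.

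Cells of the pharynx also carried more UMIs of Nvnos2/Nanos2 (NVE16405), named for a regulator of germ and stem cells, with 382 against 41, a ratio of 6.78 (4.90 to 9.59), in 11.6% and 2.30% of cells (5.42% and 0.908% thinned). Its leading cluster, 1, held 38.0% of the pharynx UMIs. Of 20 compared members of the cycling and germline list 4 were pharynx-high, against 12.4% of all models, and none body-wall-high, against 6.58%. The calls beside Nvnos2/Nanos2 were histones, among them the H4 model NVE24050 with 110 against 12 UMIs. Histone genes too are near copies of each other.

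The body wall held several abundant models with few UMIs in the pharynx. GXN_ACRMI (NVE4779), named for galaxin, a cysteine-rich protein of the coral skeleton, had 1160 UMIs against 2, 798-fold (220 to 6593), in 26.9% of body wall cells (15.7% thinned) and with 83.3% of its UMIs in cluster 22. Anemones form no hard skeleton, and of 33 models named for coral skeleton proteins 6 (18.2%, against 6.58% of all models) were body-wall-high and 4 (12.1%, against 12.4%) pharynx-high, with a median of −0.49. Others in the body wall were ECT_ACRMI (NVE24162) with 310 UMIs against 0 and SAAR1_ACRMI (NVE10139), an acidic protein, with 297 against 0. On the pharynx side stood CPP1_ACRMI (NVE1213), with CUB and peptidase domains, 1607 UMIs against 0, at least 390-fold higher, and 95.3% in cluster 17. The most abundant unnamed body wall models, NVE1302 and NVE17825, had 10825 and 14867 UMIs against 2 and 10, and were in 63.7% and 63.1% of body wall cells (48.5% and 48.4% thinned).

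Enzymes and transporters of the body wall formed a smaller set. GST5_CAEEL (NVE13945), a glutathione transferase, which couples glutathione to foreign compounds, had 1173 UMIs against 78, 20.7-fold (16.4 to 26.4). The detoxification list gave 5 body-wall-high (13.2%) and 1 pharynx-high (2.63%) models of 38, and the solute carriers 4 and 0 of 31, 12.9% against 6.58% of all models. Without cluster 22, which holds 541 body wall cells, the detoxification list had 2 body-wall-high and 0 pharynx-high models of 31 compared, and the solute carriers 0 of 26 in either direction.

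Several lists had few or no calls. None of 93 compared ribosomal proteins was called in either direction, with a median of −0.15, and RL22_XENTR (NVE9154) had a ratio of 1.00 (0.942 to 1.06). All 118 ribosomal rows took 32.1% of pharynx and 34.3% of body wall UMIs. The respiratory chain had 1 call in 52, and the gastrodermis and nutrient list, which holds ferritins, cathepsins and sterol carriers, 1 in each direction of 33. The ferritins named FRIS_LYMST, iron stores among the most abundant transcripts of both tissues, lay near even, with ratios of 1.05 (NVE25570), 0.927 (NVE14362) and 0.842 (NVE15943). The immune list gave 1 pharynx-high (3.57%) and 2 body-wall-high (7.14%) models of 28, the neuron list 2 (6.67%) and 3 (10.0%) of 30, and the cell adhesion list 3 (9.09%) and 2 (6.06%) of 33. All 3 lists were thus below the 12.4% of all models on the pharynx side, though with 1 to 3 called models each. On the body wall side the immune and cell adhesion lists lay near the 6.58%, and the 10.0% of the neuron list rests on 3 models. Without the 2% of barcodes with the most UMIs the neuron list had 0 pharynx-high and the immune list 5 body-wall-high models, and without cluster 22 the neuron list had 1 body-wall-high model.

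Clusters 2, 10, 11 and 15 held at least 40 cells of each library and allowed the tissues to be set side by side within a cluster. Among models with at least 50 UMIs in the cluster, 2 (0.326%) were pharynx-high and 44 (7.17%) body-wall-high of 614 in cluster 2, 8 (1.42%) and 52 (9.22%) of 564 in cluster 10, 8 (2.61%) and 10 (3.26%) of 307 in cluster 11, and 13 (4.39%) and 21 (7.09%) of 296 in cluster 15. Of these, 28 of the 44, 37 of the 52, 10 of the 10 and 15 of the 21 body-wall-high models were also body-wall-high over all cells. The pharynx-high ones were also called over all cells in 2 of 2, 2 of 8, 6 of 8 and 9 of 13. Pharynx and body wall cells held 81192 and 363861 UMIs in cluster 2 and 53393 and 224131 in cluster 10. In clusters 11 and 15 they held 68902 and 66470, and 48426 and 55425. A model seen in pharynx cells alone thus needed a higher CPM to reach 50 UMIs in clusters 2 and 10. The counts of the 2 directions cannot be compared there.

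Within cluster 2 the heme-binding model HEBP2_HUMAN (NVE2673) had 97 UMIs in 123 pharynx cells and 19 in 338 body wall cells, 22.9-fold higher in the pharynx (13.9 to 39.6), and MYPH_ECHGR (NVE7522) had 11 and 1192, 24.2-fold higher in the body wall (13.5 to 48.6). Within cluster 15 NvFoxA (NVE20630) had 51 UMIs in 49 pharynx cells and 2 in 53 body wall cells, 29.2-fold (7.68 to 247). CHIT_BRUMA (NVE9103) was at 0 in the pharynx cells of clusters 10 and 11 and had 713 and 124 UMIs in the body wall cells. The glycoprotein model GP2_CANFA (NVE8266) changed sides: over all cells it had 245 UMIs in the pharynx against 2325 in the body wall, 13-fold higher in the body wall (11.4 to 14.9), but within cluster 10 it had 183 and 27, 28.5-fold higher in the pharynx (18.9 to 44.3). Cluster 22 held 92.0% of its body wall UMIs and cluster 10 held 74.7% of its pharynx UMIs. Pharynx and body wall barcodes below the cutoff held 30 and 1153 UMIs of GP2_CANFA, the opposite direction to cluster 10. For the other 4 models their direction was that within the clusters. They held 716 and 45 UMIs of HEBP2_HUMAN, 26 and 507 of MYPH_ECHGR, 236 and 2 of NvFoxA, and 0 and 1772 of CHIT_BRUMA. The part of free RNA in differences within a cluster was not tested. The cells of the 2 libraries in cluster 10 differed in other models as well. The lectin-named CSL3_ONCKE (NVE7724) was detected in 95.5% of its pharynx cells and 2.84% of its body wall cells. HE_HEMPU (NVE1814) was in 0 and 62.5%, and CHIT_BRUMA in 0 and 79.5%. A shared cluster is thus not shown to hold the same kind of cell from both tissues.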

How the data were processed

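Single-cell RNA was counted in 1 pharynx and 1 body wall library. The authors deposited UMI counts, whole numbers with no normalization, for each model in each barcode. Per the submitters' processing notes the tool was Cell Ranger 2.1.0. Genome build, alignment settings, the handling of reads that match several models and the source of the names: not given in the sources used here. A matrix had 25734 gene rows, 17269 of them named, and 7000 barcodes. The lowest barcode held 121 and 103 UMIs, so the deposited barcodes had been selected before. Of the identifiers 0 were found in the RefSeq gene table, so no position or sequence is given.

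Barcodes with at least 300 UMIs were kept, holding 78.7% of the pharynx and 71.1% of the body wall UMIs. Their counts were summed per model and set to CPM. A model was compared with at least 50 UMIs over both libraries and called at 4-fold. Intervals of ratios are exact for 2 Poisson counts (conditional binomial), and those of shares exact Clopper-Pearson intervals. A ratio against 0 UMIs uses the floor of 3 UMIs. Cells were thinned at random to 300 UMIs for the thinned shares. List medians use log2 ratios with 10 CPM added. The share of UMIs that a list or family took is over all its gene rows, compared or not. The calling was tested on simulated data. Toxin-named models, 49 rows with 0.545% and 0.459% of the UMIs, were left out of every count and name.

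Cells were clustered with scanpy 1.11.5 and igraph 0.11.9 on counts scaled to 10000 per cell (2000 variable genes, 30 principal components, 15 neighbours, Leiden resolution 1, seed 1). No doublet caller was run. Cells with up to 34758 UMIs in the pharynx against 10216 in the body wall were kept, and the 2% of barcodes with the most UMIs were left out as an alternative. Values were computed with Python 3.11.15, NumPy 2.4.6, SciPy 1.17.1 and pandas 2.3.3, and TMM factors with edgeR 4.0.16 in R 4.3.3.

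The genes, lists and comparisons were chosen with earlier results of these data known, and list patterns were cleaned of names of other functions after values were seen. Named by rule were, in each direction, the called models with the most extreme interval limits and the most UMIs, the leading members of each list, shared name stems, models with even levels, and every called regulator and signalling gene. Named after their values were seen were IFT20_MOUSE, RFX3_XENTR, CTRB_BOVIN, CTR2_CANFA, CBPA4_HUMAN, the CHIT1_HUMAN models, ATS16_HUMAN, MMP9_CANFA, the TIMP3 models, CO2A1_XENLA, CO5A1_RAT, CO4A1_DROME, the laminins, AGRIN_RAT, FBLN1_DANRE, CSRP1_COTJA, NvMyophilin-like, TNNC1_PIG, Nvnos2/Nanos2, H4_DENKL, ECT_ACRMI, SAAR1_ACRMI, HEBP2_HUMAN, Rfamide, LWA_HYDEC and the receptors of the closing section, as were the genes given within clusters.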

Additional observations from a re-analysis of the deposited data

How the results depend on the processing

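No paired analysis was possible because each tissue has 1 library and no result comes from a test. Of 15 alternatives, the count minimum moved the counts of pharynx-high and body-wall-high models most: a minimum of 20 UMIs gave 1222 and 603, a minimum of 200 UMIs gave 204 and 168. Cells thinned to 300 UMIs gave 277 and 179, with fewer UMIs to compare. The other alternatives kept both counts within 1.5 times, including other cell cutoffs, equal weights per cell, TMM scaling and sums without the most abundant models, the shared barcodes or a group of clusters. With the minimum of 50 UMIs kept, 321 (45.9%) of the pharynx-high and 194 (52.3%) of the body-wall-high models were called under all 10 alternatives other than thinning and other minimums or folds, and 187 (26.7%) and 136 (36.7%) with thinning as well. Whatever their UMIs, 396 (56.6%) and 279 (75.2%) were past 4-fold under these 11. Of 2431 values of the 221 named models, 358 moved beyond their counting interval and 2 changed sign: after thinning, the log2 ratio of GAPR1_MOUSE (NVE3008) was −0.026 and that of VGLU1_XENLA (NVE21028) was −0.35. The ratio of list shares of UMIs changed sign in 16 of 275 values. Depth limits what can be said of the sparse models: at a median of 563 and 766 UMIs per cell, a cell without a UMI of a gene is not shown to lack its transcript. A difference between 2 libraries may be one between animals, dissections or captures, which cannot be told apart from the tissue.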

Other observations

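Nerve-related genes differed in single models rather than as a list. The neuropeptide gene Rfamide (NVE7549), whose peptides act on muscle and nerve in cnidarians, had 167 UMIs in the pharynx against 2 in the body wall, 60.7-fold (16.6 to 506). These came from 24 and 2 cells, and 86.2% of the pharynx UMIs lay in cluster 15. In barcodes below the cutoff the counts were 26 and 16. LWA_HYDEC (NVE9858), named for a neuropeptide precursor of a hydroid, had 10 UMIs in the pharynx against 74 in the body wall, 10.2-fold higher in the body wall (5.23 to 22.1), from 10 and 6 cells. In barcodes below the cutoff it had the higher count in the pharynx, 57 against 28 UMIs. The synaptotagmin SYT11_HUMAN (NVE18808), a vesicle protein, had 2 and 54 UMIs, and ACH2_CAEEL (NVE13969), an acetylcholine receptor subunit, 36 and 455, 17.4-fold higher in the body wall (12.4 to 25.1).

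Of 21 compared receptors for peptides and amines, 5 (23.8%, against 12.4% of all models) were pharynx-high and 1 (4.76%, against 6.58%) body-wall-high. This was not kept under other settings: 5 and 4 of 23 were called with cells weighted equally, 9 and 7 of 61 at a minimum of 20 UMIs, and 0 of 5 after thinning. CCKAR_CAVPO (NVE18316), named for a cholecystokinin receptor, had 57 against 8 UMIs, 5.18-fold (2.46 to 12.6), NPYR_DROME (NVE25956) 51 against 6 and the adenosine receptor AA2AR_CANFA (NVE8359) 50 against 4. Of the ion channels, 3 models of the sensory channel TRPA1 split, with NVE16114 (75 against 1 UMIs) and NVE6201 (77 against 0) on the pharynx side and NVE1852 (2 against 58) on the body wall side. The cause of these differences was not tested.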
